A study of Mus musculus with 6 samples.

Results

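Visceral endoderm is the epithelium that surrounds the early mouse embryo and feeds it before a placenta and a liver exist. Like the liver that later takes over, it secretes carrier proteins that bind iron, retinol and thyroid hormone, and it packs lipid into lipoprotein particles with apolipoproteins on their surface. Embryonic stem (ES) cells do not belong to this lineage, but ES cultures can hold cells that have drifted towards extraembryonic endoderm. The RNA of these genes may therefore bear on which cell types a culture holds. Lipid traffic itself was not measured. The set described here holds 10 genes of this kind. Afp, Ttr, Trf and Rbp4 encode plasma carriers, Apoa1, Apoa2, Apoa4, Apob and Apoe encode apolipoproteins, and Mttp encodes the transfer protein that loads lipid onto apolipoprotein B.

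A gene of the set was read by every probe set that the platform annotation gives to its symbol alone. This left 9 of the 10 genes with 22 of the 45037 probe sets tested, and 9 of the 18193 genes that had such a probe set. The only probe set found for Trf, the transferrin gene, is also annotated to another gene, so Trf has no level here. The arrays compared 3 Med23 knockout cultures with 3 wild-type cultures of mouse ES cells of the 129SV strain, all harvested after 24 hours in fresh complete medium. Med23 is a subunit of the Mediator complex, which connects transcription factors to RNA polymerase II. The titles call the replicates biological, and p-values measure the spread between these samples. How the knockout line was made, and whether it is 1 clone, is not stated in the labels.

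All values are log2 values as deposited, and a log2 fold change is the knockout mean minus the wild-type mean. Tests are limma moderated tests over all probe sets, two-sided, with Benjamini-Hochberg adjusted p-values and a threshold of 0.05. Over all probe sets and arrays the median was 4.62, called the overall median here. Detection calls were not used here, so values at or below that median cannot be separated from background, and the size of a change there is uncertain. Where a gene had several probe sets, the brightest over the 6 arrays stands for it. With 3 arrays a group, precision is limited.

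The targeted gene and the cell type were checked first. Med23 had 7.40, 7.37 and 7.33 in the knockout arrays, against 8.95, 8.86 and 8.84 in the wild-type arrays (log2 fold change -1.52, limma adjusted p = 2.69e-05). All 12 of the pluripotent cell markers Pou5f1, Nanog, Sox2 and their companions lay above the median in every array. Of these markers, 0 rose and 2 fell past the test, Klf4 and Tdgf1, and the Tdgf1 call (log2 fold change -0.28, limma adjusted p = 0.0454) ended in 7 of 13 alternatives. The count that fell was 1 to 3 over the alternatives and the count that rose 0 to 2. Pou5f1 averaged 12.92 in knockout arrays and 12.96 in wild-type arrays. Wild-type replicate 1 stood apart, with 752 probe sets at least 1 log2 unit below the mean of its fellow replicates. The lines also differed in a Y-linked gene, Eif2s3y, named after its values were seen, which averaged 9.87 in knockout arrays and 3.04 in wild-type arrays. An effect of Med23 loss therefore cannot be told apart from other differences between the lines.

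Most of the measured genes did not differ past the test: of 9, Apoe was lower, Rbp4 was higher and 7 did not pass. Apoe fell by 0.52 on the log2 scale and Rbp4 rose by 0.36. Over all genes, 10.4% fell and 8.53% rose, 18.9% in all, so the share of called genes in the set (2 of 9) was near that background. The median log2 fold change was 0.16 in the set, against 0.022 over all genes. The member at that median was Ttr, whose brightest probe set averaged below the overall median. By probe set, 2 of 22 were called, beside 14.1% of all probe sets. The median log2 fold change was then 0.050, against 0.025 over all probe sets. None of the 22 changed by 1 log2 unit or more. In bulk samples, fewer cells of a type and less RNA per cell cannot be told apart.

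The promoters of 3 members with different results are shown: Apoe, which was bright and fell, Rbp4, which was dim and rose, and Afp, which stayed at background. Members above the overall median that did not pass, such as Apoa1 and Mttp, are not shown. The windows run from 250 bases before to 50 bases after an annotated start, 5′ to 3′ on the gene's strand, from RefSeq (GRCm38.p6). Capitals mark letters of a searched motif on either strand. The endoderm motifs searched were GTTAAT as part of an HNF1 site, AAAGTCC as part of an HNF4 site, TGTTTAC for FOXA factors and AGATAA for GATA factors. The TATAAA box and TGGGCG as part of an EGR site were searched as well, and no motif contains another.
Apoe, chr7:19699139-19699438, minus strand: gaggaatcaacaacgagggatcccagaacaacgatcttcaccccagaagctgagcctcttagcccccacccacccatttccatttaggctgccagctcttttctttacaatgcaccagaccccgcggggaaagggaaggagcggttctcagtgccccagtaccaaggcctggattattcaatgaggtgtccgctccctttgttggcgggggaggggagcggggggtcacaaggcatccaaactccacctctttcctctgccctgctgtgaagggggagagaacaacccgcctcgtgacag
Rbp4, chr19:38124762-38125061, minus strand: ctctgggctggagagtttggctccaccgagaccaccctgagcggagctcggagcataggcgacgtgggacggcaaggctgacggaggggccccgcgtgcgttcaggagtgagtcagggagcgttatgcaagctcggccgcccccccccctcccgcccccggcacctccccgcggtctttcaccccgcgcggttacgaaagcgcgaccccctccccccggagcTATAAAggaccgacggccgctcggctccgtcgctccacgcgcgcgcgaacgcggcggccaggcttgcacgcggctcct
Afp, chr5:90490464-90490763, plus strand: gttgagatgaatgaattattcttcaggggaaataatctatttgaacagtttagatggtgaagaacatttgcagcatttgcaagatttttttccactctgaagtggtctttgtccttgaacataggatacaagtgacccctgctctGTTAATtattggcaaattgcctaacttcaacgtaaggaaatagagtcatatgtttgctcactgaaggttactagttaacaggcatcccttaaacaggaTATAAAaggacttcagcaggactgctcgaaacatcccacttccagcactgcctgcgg

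The Afp window held the HNF1 letters and the TATAAA box, the Rbp4 window held the TATAAA box, and the Apoe window held none of the 6 motifs. Over all 32851 promoter windows of the table, 7.1% held the HNF1 letters on either strand, 4.21% the HNF4 letters, 3.65% the FOXA letters, 11.2% the GATA letters, 18.5% the EGR letters and 13.6% the TATAAA box. These letters are a description of the windows and not sites of binding. In all, 8 members had 12 windows, and 3 of these members had more than 1. The other windows of Apoe held the HNF1 and FOXA letters in 1 and the TATAAA box in 1, and the other window of Rbp4 held the FOXA letters. Which start the arrays read was not tested. No window of a member held the GATA or the EGR letters.

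Among the plasma carriers, Rbp4, which carries retinol in blood, was the member that rose. It had 5.54, 5.28 and 5.34 in knockout arrays, against 5.05, 4.91 and 5.12 in wild-type arrays. The groups did not overlap, with a gap of 0.16 between the lowest knockout and the highest wild-type array. Groups did not overlap in 3 of the 9 genes (Rbp4, Apoe and Mttp), beside 40.9% of all genes. The means were 5.39 ± 0.14 in knockout and 5.03 ± 0.11 in wild-type arrays (SD, n = 3 each), so that Rbp4 was 1.28-fold higher (log2 fold change 0.36 with SE 0.094, adjusted p = 0.0462 by limma). This call rests on the full set of arrays. It ended when any 1 of the 6 arrays was left out, with limma adjusted p between 0.0617 and 0.133, and the fold change then lay between 0.28 and 0.42.

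Afp encodes alpha-fetoprotein, the fetal relative of albumin and a classic product of visceral endoderm. Its brightest probe set had 3.77, 4.02 and 4.29 in knockout arrays, against 3.79, 3.65 and 3.97 in wild-type arrays. The ranges overlapped, and every value lay below the overall median (log2 fold change 0.22, limma adjusted p = 0.395). The other 4 Afp probe sets had means between 2.25 and 2.91 in either group, and 0 of the 5 passed the test.

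Ttr encodes transthyretin, which carries thyroid hormone and also holds Rbp4 with its retinol. Its brightest probe set had 4.33, 4.75 and 4.33 in knockout arrays, against 4.41, 4.10 and 4.42 in wild-type arrays. Knockout replicate 2 was the highest and alone lay above the overall median, and the groups overlapped (log2 fold change 0.16, limma adjusted p = 0.543). Of its other 3 probe sets, all with means under 3, 1 lay lower in every knockout array (2.58, 2.73 and 2.60 in knockout, 2.96, 2.88 and 2.77 in wild-type), but it did not pass (log2 fold change -0.23, limma adjusted p = 0.101). Probe sets of this gene thus pointed in different directions without a call.

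**Figure D1:**
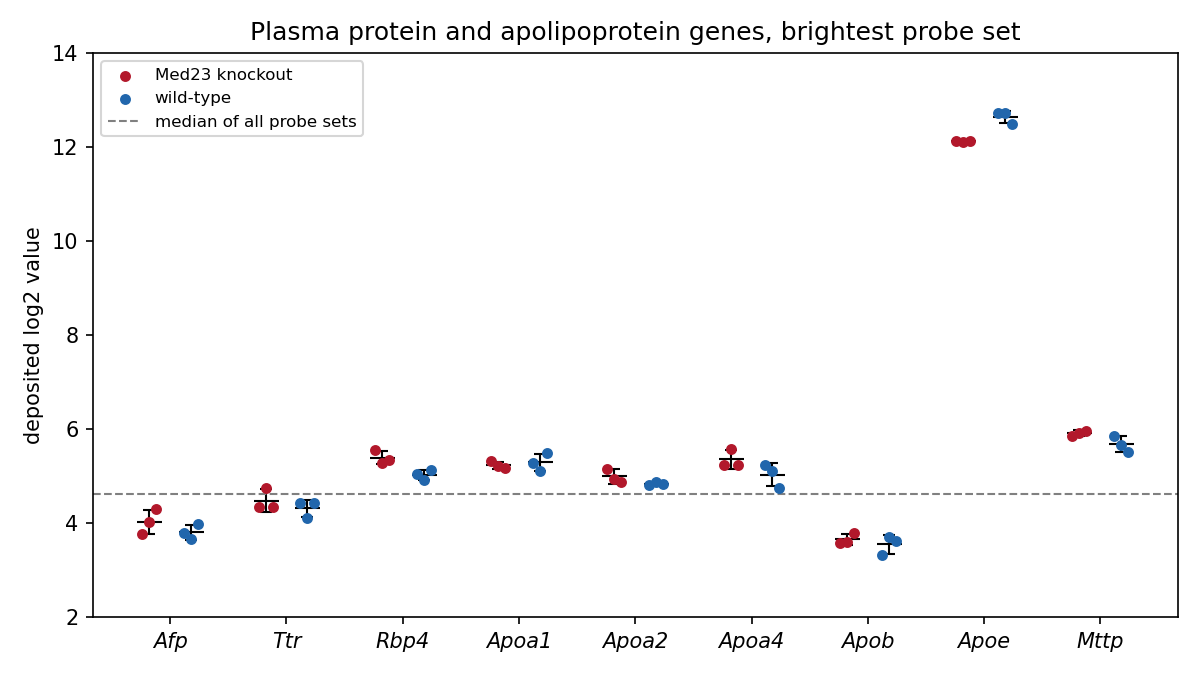
Deposited log2 value (y axis) of the brightest probe set of each measured gene (x axis) in each array, with Med23 knockout arrays in red to the left of wild-type arrays in blue. Bars are the mean and SD of 3 arrays, and the dashed line is the overall median, 4.62; Apoe sits above 12 in both groups and the other 8 genes lie below 6.

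Apoe encodes apolipoprotein E, the ligand by which receptors of the low-density lipoprotein family take up particles, and it is made by many cell types besides endoderm and liver. It had 12.12, 12.11 and 12.14 in knockout arrays, against 12.71, 12.72 and 12.49 in wild-type arrays. The knockout arrays lay within a narrow band below every wild-type array, and wild-type replicate 3 was the lowest of its group. The means were 12.12 ± 0.015 in knockout and 12.64 ± 0.13 in wild-type arrays (SD, n = 3 each), so that knockout cells had 1.43-fold less Apoe signal (log2 fold change -0.52 with SE 0.080, adjusted p = 0.00584 by limma). When the outlying wild-type array, replicate 1, was left out, the log2 fold change was -0.48 (limma adjusted p = 0.0151, within a range of 0.000325 to 0.0303 over all alternatives).

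The high-density lipoprotein genes did not move past the test. Apoa1, which encodes the main protein of these particles, had 5.31, 5.20 and 5.18 in knockout arrays, against 5.28, 5.10 and 5.48 in wild-type arrays (log2 fold change -0.057, 95% interval -0.30 to 0.19, limma adjusted p = 0.789). Its 4 probe sets gave fold changes between -0.18 and 0.071, and 1 of them lay lower in every knockout array without passing. The brightest one carries the suffix of probe sets that may bind other transcripts, so its level need not be that of Apoa1 alone.

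Apoa2, another protein of high-density lipoprotein, had 5.16, 4.94 and 4.87 in knockout arrays, against 4.82, 4.87 and 4.83 in wild-type arrays. Knockout replicate 1 was the highest and knockout replicate 3 lay within the wild-type range (log2 fold change 0.15, limma adjusted p = 0.34). Apoa4, which intestine and liver add to lipid-rich particles, had 5.24, 5.58 and 5.23 in knockout arrays, against 5.24, 5.10 and 4.75 in wild-type arrays. Knockout replicate 2 was the highest and wild-type replicate 3 the lowest, and the groups overlapped (log2 fold change 0.32, 95% interval -0.034 to 0.68, limma adjusted p = 0.232). These intervals do not show that the levels were alike.

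Apob and Mttp work together in the building of very-low-density lipoprotein and chylomicrons. Apob, the scaffold of the particle, had 3.57, 3.60 and 3.79 in knockout arrays, against 3.33, 3.71 and 3.61 in wild-type arrays, all below the overall median (log2 fold change 0.11, limma adjusted p = 0.618). Its second probe set had a fold change of the opposite sign, -0.34 (limma adjusted p = 0.196), and also lay below the median in both groups.

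Mttp had 5.85, 5.92 and 5.96 in knockout arrays, against 5.85, 5.66 and 5.51 in wild-type arrays. Every knockout array lay above every wild-type array, but wild-type replicate 1 came within 0.0049 of the lowest knockout array. Its log2 fold change, 0.24 with SE 0.095, did not pass (limma adjusted p = 0.165). Without wild-type replicate 1 it was 0.32 and passed (limma adjusted p = 0.0394, within a range of 0.0394 to 0.358 over all alternatives). The second Mttp probe set pointed the same way (0.32, limma adjusted p = 0.28).

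**Figure D2:**
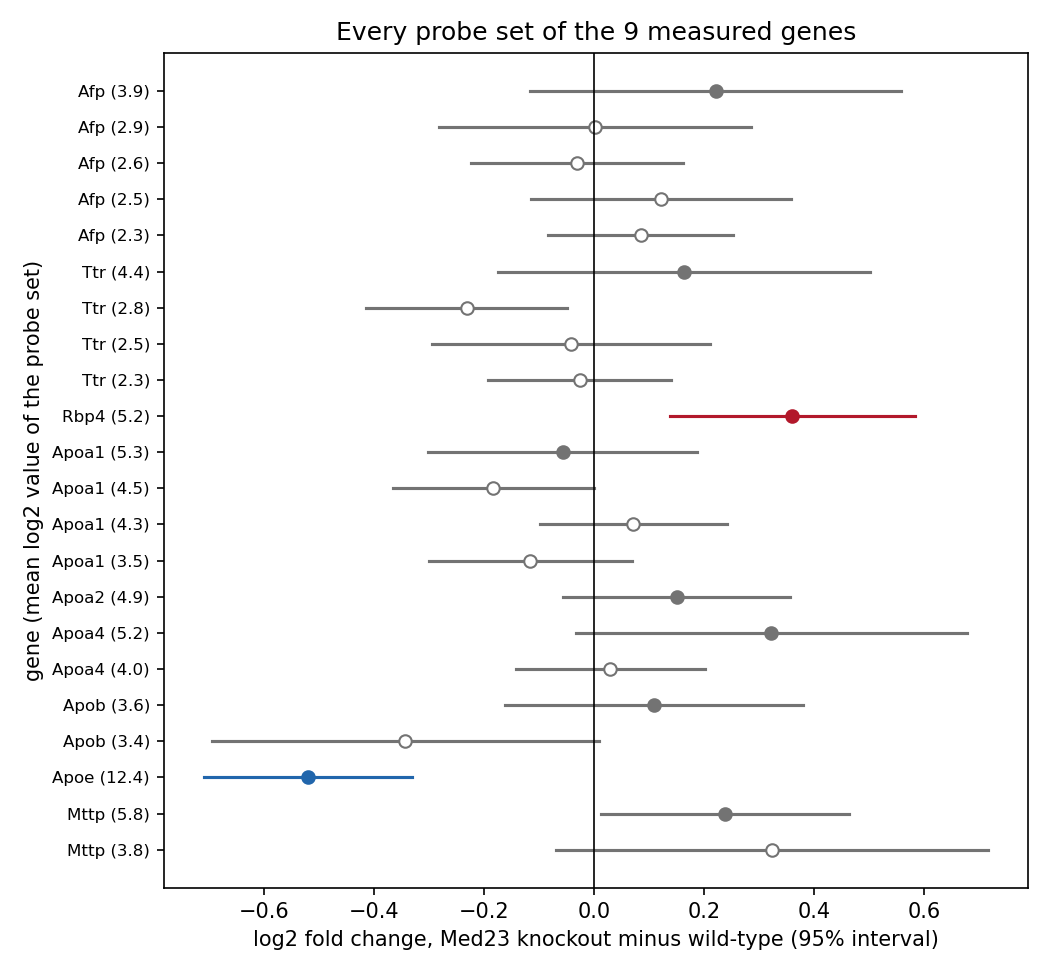
Log2 fold change (x axis, Med23 knockout minus wild-type, with its 95% interval from limma) of each of the 22 probe sets (y axis, gene and mean log2 value of the probe set), with filled points for the brightest probe set of a gene. Apoe in blue at -0.52 and Rbp4 in red at 0.36 are the probe sets past the test; the other 20 are grey.

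The brightest probe sets of Afp, Ttr and Apob averaged below the overall median in both groups, and those of the other 6 genes above it. Over all genes, 26.7% of those above the median were called and 5.13% of those not above it, beside 2 of 6 and 0 of 3 in the set. An exact permutation test over 3 against 3 arrays cannot go below p = 0.1, and Apoe, Rbp4 and Mttp reached that value.

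Several members sit beside relatives on the chromosome, and these relatives were set beside them. On chromosome 7, Apoe neighbours Apoc1, Apoc4 and Apoc2, which encode small apolipoproteins that tune lipid uptake and lipase activity. Apoc1 had 9.81, 9.86 and 9.88 in knockout arrays, against 10.004, 9.87 and 9.56 in wild-type arrays (log2 fold change 0.042, 95% interval -0.23 to 0.31, limma adjusted p = 0.868). Its groups overlapped, unlike those of Apoe.

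Apoc2, the cofactor of lipoprotein lipase, had 4.61, 4.42 and 4.31 in knockout arrays, against 5.21, 4.82 and 4.70 in wild-type arrays. Apoc4 had 5.18, 5.20 and 5.22 in knockout arrays, against 5.35, 5.48 and 5.37 in wild-type arrays. Both were below the wild-type range in every knockout array without passing (log2 fold changes -0.46 and -0.20, limma adjusted p = 0.0826 and 0.0902). Of 13 alternatives each, Apoc2 passed in 2 and Apoc4 in 3 (lowest limma adjusted p = 0.0255 and 0.0323). The difference between the changes of Apoe and Apoc1 was not tested.

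On chromosome 9, Apoa1 and Apoa4 share a cluster with Apoc3 and Apoa5. Apoa5 had 4.72, 4.66 and 4.77 in knockout arrays, against 4.57, 4.47 and 4.48 in wild-type arrays (log2 fold change 0.21, limma adjusted p = 0.0759). It passed in 2 of 12 alternatives (lowest limma adjusted p = 0.0374). Apoc3 averaged 3.93 in knockout and 3.87 in wild-type arrays, below the median. On chromosome 5, Alb, the albumin gene next to Afp, averaged 3.08 in knockout and 3.01 in wild-type arrays, and its other neighbour Afm averaged 5.03 in knockout and 4.91 in wild-type arrays. None of the genes of these 2 clusters passed the main test.

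**Figure D3:**
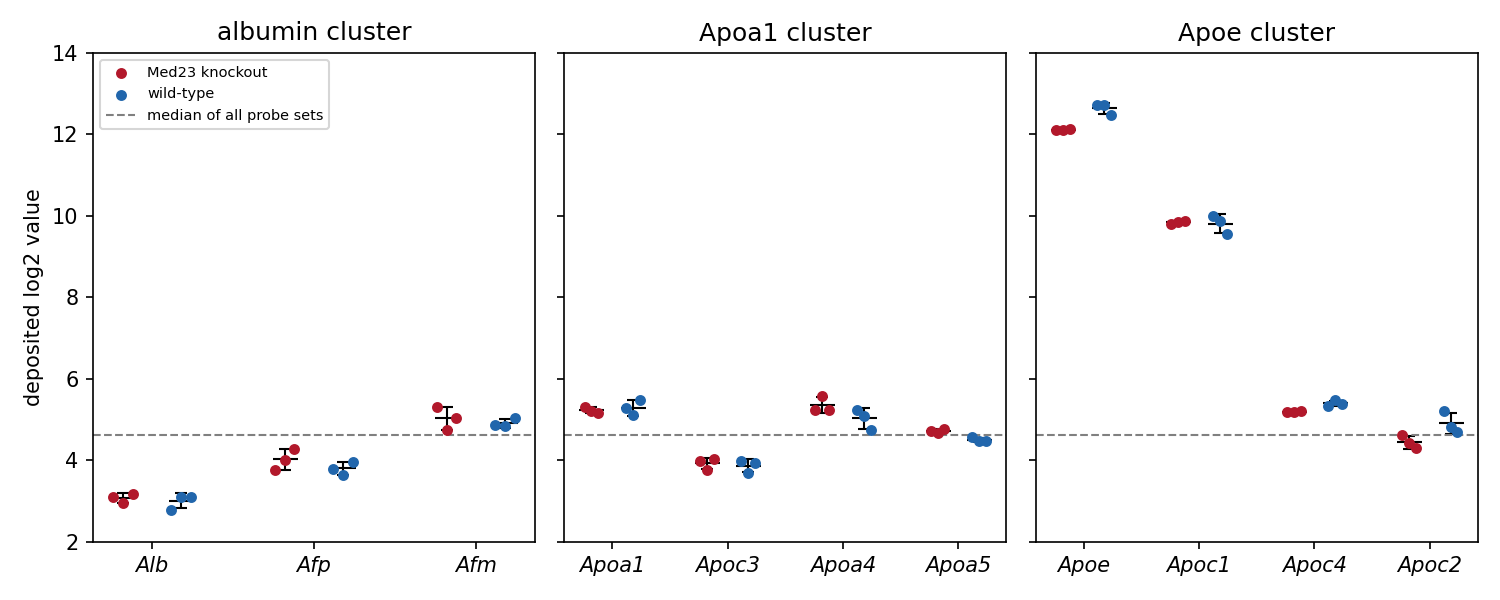
Deposited log2 values (y axis) in each array of the genes of 3 chromosomal clusters (x axis), with Med23 knockout arrays in red to the left of wild-type arrays in blue, mean and SD of 3 arrays as bars and the overall median as a dashed line. Apoe at 12.12 and 12.64 differs between the groups. Apoc2 and Apoc4 also lie lower in every knockout array, without passing the test, and Apoc1 overlaps.

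Wider neighbourhoods were described as well. Up to 10 genes on each side of a member, brighter than the overall median, had median log2 fold changes between -0.081 around Apoe and 0.14 around Ttr. Around Apoe, 3 of 20 neighbours fell and 1 rose. Around Rbp4, 3 of 20 fell and 2 rose, with a median of 0.073. The Apoe value thus lay 0.44 below the median of its neighbours. Rbp4 lay 0.29 above that of its own, and Apoa4, which did not pass the test, 0.36 above.

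The other genes of the pathway came from lists that were not picked for how these arrays moved them, though earlier results of the data were known. The counts of each list stand beside 8.53% of all genes that rose and 10.4% that fell. Among genes above the overall median, 26.7% were called in either direction. Of 23 measured plasma proteins other than the members, 1 rose, 2 fell and 20 did not pass (median 0.023), and 19 lay below the overall median in both groups. Fetub, which encodes the protease inhibitor fetuin-B, had 4.83, 5.05 and 5.01 in knockout arrays, against 7.34, 7.02 and 7.14 in wild-type arrays (log2 fold change -2.20, limma adjusted p = 3.94e-05). Spink1, a secreted trypsin inhibitor, fell by 0.45 and F2, the prothrombin gene, rose by 0.37 (limma adjusted p = 0.0202 and 0.0164). The Spink1 call ended in 5 of 13 alternatives and the F2 call in 2, those without knockout replicate 1 or 2.

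Of 12 other apolipoproteins, 1 rose, 1 fell and 10 did not pass (median 0.050). Clu, which encodes the chaperone-like apolipoprotein J, had 8.17, 8.14 and 7.97 in knockout arrays, against 9.42, 9.25 and 9.40 in wild-type arrays (log2 fold change -1.26, limma adjusted p = 0.000163), and all 4 of its probe sets fell. Apod, a lipocalin found on high-density lipoprotein, had 6.82, 6.81 and 6.80 in knockout arrays, against 5.92, 5.67 and 5.78 in wild-type arrays (log2 fold change 1.01, limma adjusted p = 0.000306). The second Apod probe set did not pass and had a fold change of -0.22. As a mean of both probe sets, Apod rose by 0.40.

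Of 16 genes of lipoprotein assembly and remodelling, 1 rose, 4 fell and 11 did not pass (median -0.047). Lpl, the lipase that frees fatty acids from particles, rose to 9.67 ± 0.085 in knockout arrays, against 8.48 ± 0.25 in wild-type arrays (SD, n = 3 each), which is 1.19 log2 units higher (limma adjusted p = 0.00115). P4hb encodes protein disulfide isomerase, the partner subunit of Mttp, and it fell by 0.58 (limma adjusted p = 0.000957) while Mttp itself did not pass. Abca1, the exporter that hands cholesterol to Apoa1, and Dgat2, which makes triglyceride, fell by 0.47 and 0.37. The Abca1 call ended in 4 alternatives, and 1 of its 3 probe sets passed. As the mean of a gene's probe sets, Abca1 had a log2 fold change of -0.11 and did not pass (limma adjusted p = 0.308), and Dgat2, with 1 of 2 probe sets past the test, fell by 0.23. Without any 1 of the 3 knockout arrays, 2 genes of this list fell.

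Of 12 genes listed as lipoprotein receptors or proteins associated with them, 2 rose, 4 fell and 6 did not pass (median -0.14). Vldlr, a receptor that binds Apoe, had 6.42, 6.61 and 6.69 in knockout arrays, against 5.04, 4.92 and 4.84 in wild-type arrays (log2 fold change 1.64, limma adjusted p = 8.60e-05). Of its 6 probe sets, 3 rose and 3 did not pass, and the mean of all 6 rose by 0.70. Cubn, which takes up Apoa1 and iron-loaded transferrin, fell by 3.11, and Amn, which anchors Cubn in the membrane, fell by 2.002. The lipolysis-stimulated receptor gene Lsr fell by 0.58, a call made by 1 of its 2 probe sets, and as their mean it fell by 0.26. The remaining gene that fell, named after its values were seen, was Lrpap1 (log2 fold change -0.39, limma adjusted p = 0.0262). It encodes a receptor-associated protein and, like Amn, is not itself a receptor. The other receptor gene that rose, named after its values were seen, was Scarb1, the receptor for high-density lipoprotein (log2 fold change 0.26, limma adjusted p = 0.041). Without any 1 of the 6 arrays, or with the replicate block, 1 receptor gene rose, and Vldlr kept its call throughout.

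Of 14 genes that receive, store or bind the carried iron, retinol and thyroid hormone, 0 rose, 1 fell and 13 did not pass (median 0.048). The gene that fell was Slc40a1, the iron exporter ferroportin, with 4.72, 4.57 and 4.46 in knockout arrays, against 6.18, 6.13 and 6.05 in wild-type arrays (log2 fold change -1.54, limma adjusted p = 7.32e-05). Its knockout mean lay below the overall median.

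Regulators and markers of endoderm included larger fold changes than any carrier. Of 20 transcription factor genes of extraembryonic endoderm or known as regulators of the members, 0 rose, 7 fell and 13 did not pass (median -0.043). Sox7, Gata6, Sox17 and Foxa2, which drive or mark endoderm, fell by 2.70, 2.59, 2.45 and 1.43, and the knockout means of Sox7, Sox17 and Foxa2 lay below the overall median. In Sox7 and Gata6, 1 probe set each did not pass, and as the mean of their probe sets they fell by 1.28 and 1.37. Without knockout replicate 2, 4 genes of this list fell. Of 14 visceral endoderm markers, 10 fell, 1 rose and 3 did not pass (median -1.11), and of 12 parietal endoderm markers 9 fell and 1 rose (median -1.56). The lists share genes, so their counts are not separate. Hnf4a, Foxa2, Sox17, Gata4 and Gata6, which all fell, count both as regulators and as visceral markers. Cubn and Amn count both in the lipoprotein receptor list and as visceral markers. No parietal marker rose past the test when wild-type replicate 2 or 3 or any 1 knockout array was left out. The visceral marker that rose, named after its values were seen, was the X-linked gene Rhox5. The difference between these lists and the 9 carriers was not tested.

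**Figure D4:**
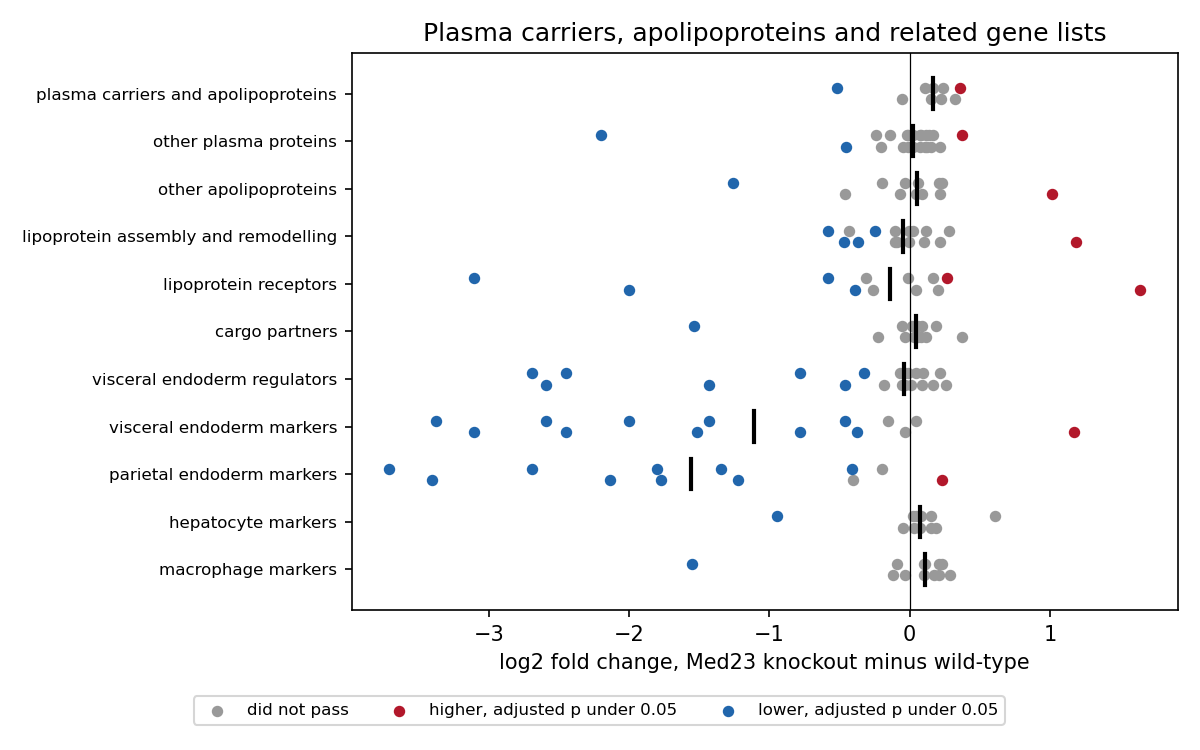
Log2 fold change (x axis, Med23 knockout minus wild-type) of every measured gene of each list drawn (y axis), 1 probe set per gene. Genes lower past the test are in blue, higher past the test in red and the rest in grey, and black bars are medians. The lists of pluripotent cell, fibroblast and trophoblast markers are not drawn. The 9 measured carriers and apolipoproteins of the set lie between -0.52 and 0.36, the other apolipoproteins between -1.26 and 1.01, and the visceral endoderm markers between -3.38 and 1.17.

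Markers of other cells that make Apoe were set beside its fall. The summed linear level of the 14 visceral endoderm markers, which Rhox5 leads, was 5318 to 5423 in knockout arrays and 4045 to 4789 in wild-type arrays, while their median log2 value was 4.83 to 5.06 in knockout and 6.81 to 7.42 in wild-type arrays. The 12 parietal endoderm markers summed to 3997 to 4103 in knockout and 8297 to 9365 in wild-type arrays. Their part in the fall of Apoe was not tested.

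Of 12 macrophage markers, 1 fell and 11 did not pass. The marker that fell was the lysosomal gene Cd68 (log2 fold change -1.55, limma adjusted p = 2.53e-05), which leads the summed linear level of 378 to 412 in knockout and 778 to 844 in wild-type arrays. The median log2 value of the list lay the other way, at 3.43 to 3.80 in knockout and 3.28 to 3.37 in wild-type arrays, and the median log2 fold change was 0.11. The defining markers Ptprc and Adgre1 averaged below 3 in both groups. Of 11 hepatocyte markers, 1 fell, Fah, and 9 lay below the overall median in both groups, Alb among them. Of 12 trophoblast markers 4 fell, led by the keratin genes Krt8, Krt7 and Krt18 (-2.52, -1.91 and -1.67), and 0 rose (list median -0.13). The 8 that did not pass included Cdx2, Eomes, Elf5, Gata3, Tfap2c and Hand1. Of 12 fibroblast markers 2 fell and 1 rose, with 1 that fell when knockout replicate 1 or 2 was left out.

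The genes whose profile over the 6 arrays was most like that of Apoe, by the root mean square difference of centred log2 values among 11180 candidates, were Irak3, Ccl20 and Phf11d (differences of 0.021 to 0.031). Their log2 fold changes were -0.55, -0.55 and -0.56. The second Irak3 probe set had -0.32 and did not pass. Genes picked this way have fold changes near that of the member by the choice itself, here and for Rbp4. Those most like Rbp4 were Sgsm2, Igfbp5 and Dmrtc2 (differences of 0.048 to 0.052), with log2 fold changes of 0.42, 0.43 and 0.29, of which that of Dmrtc2 did not pass the test. The Sgsm2 call (limma adjusted p = 0.0455) ended in 7 of 13 alternatives, among them each fit without 1 array. The Igfbp5 call ended in 3, and as the mean of its probe sets it rose by 0.23.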

How the data were processed

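Total RNA of 3 Med23 knockout and 3 wild-type ES cell cultures was extracted with Trizol and hybridised as biotinylated cRNA, per the labels' protocols. The authors deposited 1 table of log2 values; the log base is not stated and was read from the values. Per the submitters' processing notes, the tools were RMA and MAS5, with no role or version. Values were used as deposited; array medians lay between 4.61 and 4.64, and 0 columns belonged to other samples.

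The table held 45101 probe sets, of which 64 controls were dropped. Of the rest, 34945 carried 1 symbol in the platform annotation, 932 several and 9160 none. Entrez identifiers linked 34741 of the first kind to a RefSeq table (GRCm38.p6), used for names, gene order and promoters. Groups and replicate numbers came from the titles. Tests used limma 3.58.1 in R 4.3.3 (lmFit, eBayes, 4 residual degrees of freedom, prior 3.08), tested on simulated data. Array weights, a replicate block, other scalings, a filter on low values, probe set averaging and leaving out each array were tried. The members and lists were chosen with earlier results of these data known. Named genes were all members and their clusters, and for each called member the 3 most similar profiles, predicted genes skipped. From the lists, up to 4 called genes with the largest change per pathway list (3 per marker list) were picked. Not every marker picked in this way is named in the text, and some genes outside this rule, Rhox5 among them, are named as well. Deviations of same-numbered arrays from their group means correlated at -0.13, -0.059 and 0.00083, so no strong shared deviation by replicate number was seen. These correlations cannot exclude that the numbers pair the samples.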

Additional observations from a re-analysis of the deposited data

How the results depend on the processing

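The fold changes of the 9 genes were recomputed 114 times, and 102 kept their direction and their side of the threshold; Apoe kept both under every alternative run. The Rbp4 call ended with the replicate block (log2 fold change 0.36, limma adjusted p = 0.0607) and in each fit that left out 1 array (0.28 to 0.42), so the count of genes that rose was 0 with the block and 0 to 1 without 1 array, where the 1 is Mttp. Fewer arrays or degrees of freedom entered those fits, and whether the numbers pair the samples is not known. Mttp passed without wild-type replicate 1; its fold changes without 1 array ran from 0.16 to 0.32. Among uncalled values, signs turned for Ttr (-0.034) and Apob (-0.12) as the mean of a gene's probe sets, and, without 1 array, for Apoa1 (-0.15 to 0.038) and Apob (-0.0017 to 0.19). The same happened without 1 array for dim probe sets of Afp (-0.10 to 0.056, with -0.017 after quantile normalization, and -0.069 to 0.038), Ttr (-0.11 to 0.054 and -0.077 to 0.0049) and Apoa4 (-0.031 to 0.069), and for Alb (-0.032 to 0.14), Afm (-0.017 to 0.26), Apoc3 (-0.036 to 0.14) and Apoc1 (-0.084 to 0.14). Over all probe sets, 3013 rose and 3346 fell; 1915 rose with the replicate block and 1497 to 3494 without 1 array, with 1710, 1497 and 1549 without knockout replicates 1, 2 and 3 and 1826 without wild-type replicate 2. The summed level of the 9 genes, which Apoe leads, differed by -0.49 on the log2 scale, and their median level by 0.28. Without wild-type replicate 1, 2 genes rose among the other apolipoproteins, the assembly genes and the pluripotent cell markers each. The cause of these shifts was not tested. Signal near background limits Afp, Ttr and Apob. It may also limit Rbp4 (means of 5.03 in wild-type and 5.39 in knockout arrays), Apoa1, Apoa2 and Apoa4. These were dim too, and the overall median is not a detection limit.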

Other observations

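Some deposited values repeat exactly between arrays. Of 45037 probe sets, 2162 (4.8%) had the same value on at least 2 of the 6 arrays, and among the 22497 with a mean not above the median of all probe sets the share was 7.42%. The brightest Apoa4 probe set was such a case, with 5.24 in knockout replicate 1 and in wild-type replicate 1.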
